A study of Homo sapiens with 4 samples.

Results

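The genes described here are the ADAM, ADAMTS and ADAMTSL genes, chosen by name alone: every gene name that consists of one of these stems followed by a number. There were 41 of them among 31907 gene names, 18 ADAM, 18 ADAMTS and 5 ADAMTSL. They were read in 4 RNA-seq libraries of HGC-27 cells, a human gastric cancer cell line, from an experiment that asked what the cytokine IL-17B does to these cells. The control group, called PBS here, held 2 libraries of cells given phosphate-buffered saline, and the other held 2 libraries of cells given recombinant IL-17B (rIL-17B) at 200 ng/ml, both for 48 h. No genotype change, passage or serum condition is given in the labels, and whether the replicates were separate cultures is not stated, so p-values measure only the spread between these libraries, which may be technical. RNA was primed with oligo-dT and amplified (Smart-seq2), and the authors deposited reads counted per gene. The library totals were between 12888029 and 17555879 counts.

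ADAM proteins are membrane-anchored proteases that cut the outer part of other membrane proteins from the cell surface, a step called shedding, which frees growth factors and cytokines and starts Notch signalling. Some ADAM proteins lack the zinc-binding motif of the active site and act in adhesion instead. ADAMTS proteins are secreted relatives that carry thrombospondin repeats and cut matrix proteins such as procollagens, proteoglycans and fibrillins, and ADAMTSL proteins share their repeats but have no protease domain and bind the matrix. Shedding by ADAM10 and ADAM17 feeds the EGF receptor in stomach epithelium and in gastric cancer, while most ADAMTS genes are best known from fibroblasts and other matrix-making cells.

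The stretches just upstream of the RefSeq start of 4 members are printed because the data set 2 of these genes against the other 2: ADAMTS2 and ADAMTS12 had almost no counts in rIL-17B replicate 1, while ADAM10 and ADAM17 had many in every library. Each is 150 bases of the RefSeq sequence of GRCh38.p14, written 5′ to 3′ on the gene's own strand, which is the minus strand for all 4, at chr5:179345462-179345611 (ADAMTS2), chr5:33891991-33892140 (ADAMTS12), chr15:58749708-58749857 (ADAM10) and chr2:9555831-9555980 (ADAM17). GENCODE 29, from which the gene positions below are taken, sets the outermost start of ADAMTS12, ADAM10 and ADAM17 farther out, so that these 3 stretches lie within its gene bounds, and only that of ADAMTS2 lies outside them. Capitals mark matches to the GC box GGGCGG on either strand (CCGCCC when it lies on the other strand), a short motif bound by SP1-type factors.
ADAMTS2: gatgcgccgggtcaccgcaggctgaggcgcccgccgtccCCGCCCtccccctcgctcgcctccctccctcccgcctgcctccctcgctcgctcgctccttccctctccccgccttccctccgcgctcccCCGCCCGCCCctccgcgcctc
ADAMTS12: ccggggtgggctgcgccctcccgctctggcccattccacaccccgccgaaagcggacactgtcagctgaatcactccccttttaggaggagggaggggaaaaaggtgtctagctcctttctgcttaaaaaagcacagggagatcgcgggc
ADAM10: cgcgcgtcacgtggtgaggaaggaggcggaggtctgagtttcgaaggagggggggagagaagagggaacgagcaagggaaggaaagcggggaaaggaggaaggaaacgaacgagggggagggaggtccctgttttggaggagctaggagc
ADAM17: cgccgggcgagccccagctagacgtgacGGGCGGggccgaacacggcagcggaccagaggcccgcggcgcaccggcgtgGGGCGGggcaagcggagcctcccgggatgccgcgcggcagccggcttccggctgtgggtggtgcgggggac
ADAMTS2 held 3 matches in this window, a pair of which overlap, ADAM17 held 2, and ADAMTS12 and ADAM10 held 0. In longer RefSeq promoter windows, the 250 bases before the start, all 4 genes had a match. There were 4 in ADAMTS2, 1 in ADAMTS12, 1 in ADAM10 and 3 in ADAM17. Such windows were found for 27 of the 41 members, 28 windows in all (ADAMTS10 has 2). The family's windows had a median GC content of 73.6% and 25 CpG sites, and 75.0% of them held a GC box, against 58.0%, 11 and 42.6% over all 35116 windows of this kind. TATAAA on either strand was in 7.14% of the family's windows and in 10.7% of all windows. A match is a description of the letters and not a site of binding.

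rIL-17B replicate 1 stood apart from the other 3 libraries, and its values are given separately throughout. The labels name HGC-27 for all 4 libraries, and whether this library came from the same cells as the others was not tested, which bears on each of its values and on each rIL-17B mean and fold change. CPM is a count divided by its library's total and scaled up by a constant. Folds of a single gene written as a factor, such as those with a counting interval, are ratios of plain CPM. For log2 ratios and for numbers of genes past 2-fold, CPM was first scaled by edgeR's TMM factors. After 0.5 CPM was added to each value, 0 of the 34 members that passed edgeR's filter on low counts were 2-fold apart between the PBS libraries, while 0.672% of the 16361 genes tested were. Between rIL-17B replicate 1 and each of the other libraries, 17 or 18 members were 2-fold apart, against 20.7%, 21.8% and 17.7% of all genes for PBS replicates 1 and 2 and rIL-17B replicate 2. Between rIL-17B replicate 2 and PBS replicates 1 and 2, 0 and 2 members were (ADAMTS3 and ADAMTS9), against 0.513% and 1.8% of all genes. The smallest level that 3 counts can show was between 0.171 and 0.233 CPM. Such floors and the counting intervals below cover counting error only, since PCR copies were counted. The intervals take the count of the rIL-17B library alone and hold the PBS mean fixed. The spread of the PBS libraries is thus left out of them.

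Markers of cell types moved with the same library. The summed level of 6 mesenchymal markers was 37892 and 37227 CPM in the PBS pair against 719.9 and 31467 CPM under rIL-17B, most of it FN1 except in rIL-17B replicate 1, where FN1 was 149 CPM. The median log2 ratio of these 6 to the PBS mean in rIL-17B replicate 1 was -1.81, and the members were uneven: vimentin (VIM) had 727 and 706 CPM in the PBS pair against 279.8 and 615 CPM under rIL-17B, while TWIST1 had 13.3 and 9.78 CPM in the PBS pair against 11.7 and 11.7 CPM under rIL-17B. The 9 fibroblast markers summed to 18922 and 18494 CPM in the PBS pair against 553 and 16051 CPM under rIL-17B. All 6 and all 9 had a count in every library, but PDGFRA had 1 count in rIL-17B replicate 1 and COL1A2 had 16. The 8 epithelial markers summed to 995 and 989 CPM in the PBS pair against 2219 and 1245 CPM under rIL-17B, most of it the keratins KRT8, KRT7 and KRT18. KRT19, by contrast, had 47 and 43 counts in the PBS pair against 1 and 58 counts under rIL-17B, and CLDN4 had 6.73 and 8.38 CPM in the PBS pair against 6.64 and 5.92 CPM under rIL-17B. The E-cadherin gene CDH1 had between 7 and 11 counts in every library, and CLDN3 between 0 and 1. The library protocol in the labels speaks of monocytes, whereas the sample labels name HGC-27, and 11 monocyte and macrophage markers summed to 14.02 and 15.1 CPM in the PBS pair against 8.62 and 14.2 CPM under rIL-17B, with LYZ at 0 to 4 counts and CD68 at 0 to 2. Most of that sum in rIL-17B replicate 1 was CSF1R, which had 3.90 and 5.59 CPM in the PBS pair against 8.14 and 6.15 CPM under rIL-17B. The 13 neural and glial markers summed to 504 and 749.7 CPM in the PBS pair against 60.0 and 371 CPM under rIL-17B (SOX10 and DCX at 0 in every library), the 5 endothelial markers to 27.5 and 35.5 CPM in the PBS pair against 1.09 and 22.6 CPM under rIL-17B, and the 8 gastric and intestinal markers to 22.6 and 20.9 CPM in the PBS pair against 7.66 and 17.9 CPM under rIL-17B (TFF1 at 0 in every library). Most of the gastric and intestinal sum with PBS was GATA6, with 15.2 and 11.4 CPM against 1.57 and 12.1 CPM under rIL-17B. CDX2 had 1.95 and 2.02 CPM in the PBS pair against 3.69 and 1.88 CPM under rIL-17B. CLDN18 had 1.63 and 1.71 CPM in the PBS pair against 1.92 and 1.08 CPM under rIL-17B. Of the 5 genes of this list that were tested, 1 had a higher and 4 a lower fitted level. In rIL-17B replicate 1, 4 of the 11 monocyte, 6 of the 13 neural, 4 of the 5 endothelial and 4 of the 8 gastric markers had a count. The part of these differences in the results on the family was not tested, and in bulk RNA fewer cells of a type and less RNA per cell cannot be told apart.

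Across the family, ADAM9 was the highest member in the PBS libraries, followed by ADAMTS2, ADAM19, ADAM15 and ADAMTS1. These levels are given as RPKM, the CPM divided by the summed exon length of the gene in kilobases (GENCODE 29), so that genes of different length can be compared. ADAM9 stood at 58.6 and 56.2 RPKM in the 2 PBS libraries. ADAMTS2, whose product removes the amino-terminal propeptide of fibrillar procollagens, stood at 34.5 and 33.3 RPKM. ADAM19, a sheddase of neuregulins, stood at 18.5 and 26.1 RPKM, a range that overlapped that of ADAM15 at 19.6 and 20.4 RPKM. ADAMTS1 followed at 13.7 and 13.2 RPKM. ADAM10, the main sheddase of Notch receptors and cadherins, ranked 6 at 10.05 and 9.996 RPKM. ADAM17, which frees TNF and EGF receptor ligands, ranked 12 at 4.68 and 4.66 RPKM. Of the 38 pairs of neighbours in this order, 16 had overlapping PBS values and cannot be put in order. At the other end, ADAM2 and ADAM7 had no count with PBS.

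**Figure D1:**
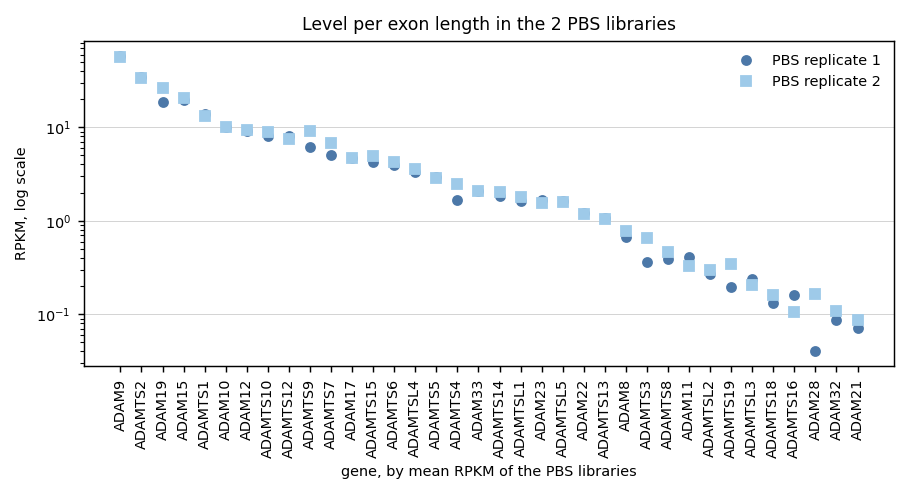
Level per exon length (RPKM, log scale) of the members with a count in both PBS libraries, ordered by their mean. The points of the 2 libraries lie close together for most genes, from ADAM9 at 58.6 and 56.2 RPKM down to ADAM21 at 0.0710 and 0.0876 RPKM, and ADAM28 shows the widest gap.

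The family as a whole took a smaller share of rIL-17B replicate 1 than of the other libraries. Summed over all 41 members, the level was 1831 and 1930 CPM in the PBS pair against 1003 and 1690 CPM under rIL-17B. The ADAM genes summed to 1024 and 1073 CPM in the PBS pair against 811 and 989 CPM under rIL-17B. The ADAMTS genes summed to 753 and 800.4 CPM in the PBS pair against 173 and 651 CPM under rIL-17B. The membrane-anchored proteins thus made up 80.8% of the family's counts in rIL-17B replicate 1 and between 55.6% and 58.5% in the other libraries. The ADAMTSL genes summed to 53.3 and 56.8 CPM in the PBS pair against 19.5 and 50.1 CPM under rIL-17B. Both rIL-17B libraries lay below both PBS libraries in each of these sums, rIL-17B replicate 2 by a small step and replicate 1 by a large one.

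**Figure D2:**
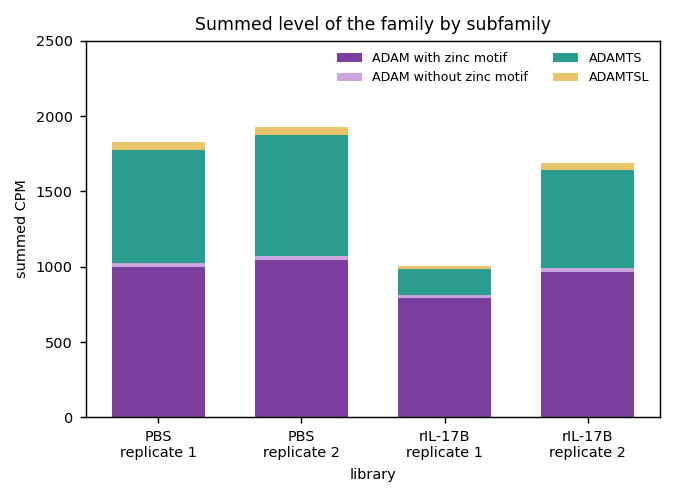
Summed CPM of the family in each library, stacked by subfamily, with the ADAM genes split by whether their protein carries the zinc-binding motif. The bar of rIL-17B replicate 1 reaches 1003 CPM and the others 1690 to 1930 CPM, and the difference lies mostly in the ADAMTS part.

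In the test of rIL-17B against PBS, no member passed. The quasi-likelihood test of edgeR, with p-values adjusted by Benjamini-Hochberg, called 0 of the 34 members tested and 0 of the 16361 genes (0.0%), with a smallest adjusted p of 0.661 over the members and over all genes. An unadjusted p under 0.05 was found for 0 members and for 226 genes, 1.38% of those tested. With DESeq2, 0 members and 0 genes passed, and 0 members and 547 genes had an unadjusted p under 0.05. Of the 34 members, 7 had a higher and 27 a lower fitted level under rIL-17B, against 7753 higher and 8608 lower of the 16361 genes. Their median fitted log2 fold change was -0.59 against -0.03 over all genes, and ADAMTS6 and ADAMTSL2 turned from lower to higher when no normalization factors were used. On TMM-normalized CPM, both rIL-17B libraries were below both PBS libraries for 17 members (against 30.4% of all genes) and above them for 5 members (against 28.5% of all genes). With 2 libraries against 2, an exact permutation test cannot give a two-sided p under 0.333 for a single gene, so none is given.

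The size of the difference depended on the library. Relative to the PBS mean, the 34 members had a median log2 ratio of -0.97 for rIL-17B replicate 1 and of -0.13 for replicate 2, against -0.04 and -0.01 over all genes. rIL-17B replicate 1 was at least 2-fold lower than the PBS mean for 17 members, against 19.9% of all genes, and at least 2-fold higher for 1 member, ADAMTSL3, against 0.996% of all genes. rIL-17B replicate 2 was at least 2-fold lower for 1 member, ADAMTS3, against 0.575% of all genes, and higher for 0 members, against 0.0672% of all genes. Of the 2 rIL-17B libraries, replicate 1 had the lower value for 27 of the 34 members. Below the PBS mean were 27 of the 34 members in replicate 1, against 52.8% of all genes, and 23 in replicate 2, against 51.3% of all genes.

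**Figure D3:**
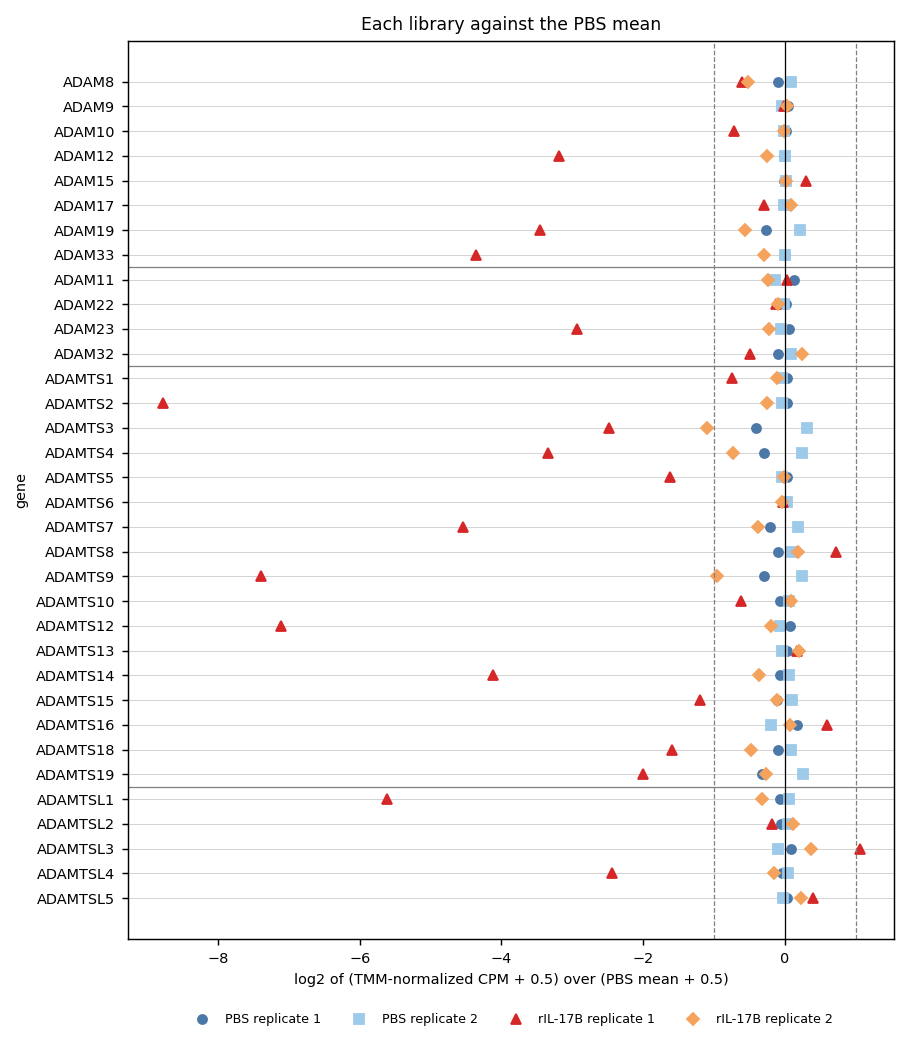
Log2 ratio of each library to the PBS mean for the 34 members tested (TMM-normalized CPM with 0.5 added); dashed lines mark 2-fold and grey lines separate ADAM genes with the zinc motif, ADAM genes without it, ADAMTS genes and ADAMTSL genes. The points of rIL-17B replicate 1 reach -8.78 for ADAMTS2, while those of replicate 2 lie between -1.10 for ADAMTS3 and 0.37 for ADAMTSL3.

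Among the ADAM genes with the zinc-binding motif, ADAM9 was close to the PBS level in both rIL-17B libraries, and ADAM10, ADAM15 and ADAM17 in replicate 2. In rIL-17B replicate 1, the log2 ratios of ADAM10, ADAM15 and ADAM17 to the PBS mean were -0.72, 0.30 and -0.30. ADAM9 (ENSG00000168615.11, chr8:38996869-39105144, plus strand), a broadly expressed sheddase, had 405 and 388 CPM in the PBS pair against 431 and 408 CPM under rIL-17B. Its means were 397 ± 11.7 CPM for PBS against 419 ± 16.7 CPM for rIL-17B (SD, n = 2; log2 fold change 0.01, SE 0.12, adjusted p = 0.968 from edgeR), and the groups overlapped after TMM normalization, though not in plain CPM. ADAM10 (ENSG00000137845.14, chr15:58588807-58749978, minus strand) had 162 and 162 CPM in the PBS pair against 108 and 161 CPM under rIL-17B. Only rIL-17B replicate 1 was clearly low; replicate 2 lay just under the PBS values in plain CPM and among them after TMM normalization. The means were 162 ± 0.598 CPM for PBS against 135 ± 37.5 CPM for rIL-17B (log2 fold change -0.32, SE 0.28, adjusted p = 0.663 from edgeR). ADAM15 (ENSG00000143537.13, chr1:155050566-155062775, plus strand), whose disintegrin domain carries an integrin-binding RGD site, had 129 and 134 CPM in the PBS pair against 178 and 134 CPM under rIL-17B. rIL-17B replicate 1 was above both PBS libraries, and replicate 2 lay at the upper PBS value, just under it in plain CPM and just over it after TMM normalization. Its means were 132 ± 3.45 CPM for PBS against 156 ± 31.1 CPM for rIL-17B (log2 fold change 0.17, SE 0.14, adjusted p = 0.662 from edgeR). ADAM17 (ENSG00000151694.13, chr2:9488486-9556732, minus strand) had 50.3 and 50.0 CPM in the PBS pair against 44.8 and 53.4 CPM under rIL-17B, so that the PBS values lay between the rIL-17B values.

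ADAM12, ADAM19 and ADAM33, by contrast, were low in rIL-17B replicate 1. ADAM19 (ENSG00000135074.15, chr5:157395534-157575775, minus strand) had 142 and 201 CPM in the PBS pair against 16.7 and 117 CPM under rIL-17B. Both rIL-17B values were below both PBS values, replicate 1 by 10.3-fold (95% counting interval 9.06 to 11.7) against the PBS mean, and the means were 172 ± 41.4 CPM for PBS against 66.8 ± 70.8 CPM for rIL-17B (log2 fold change -1.38, SE 1.04, adjusted p = 0.661 from edgeR). ADAM12 (ENSG00000148848.14, chr10:126012381-126388455, minus strand), a sheddase of heparin-binding EGF that is abundant in mesenchymal cells, had 90.7 and 92.5 CPM in the PBS pair against 10.6 and 77.2 CPM under rIL-17B. Its value in rIL-17B replicate 1 was lower than the PBS mean by 8.64-fold (95% counting interval 7.38 to 10.2), and the means were 91.6 ± 1.29 CPM for PBS against 43.9 ± 47.1 CPM for rIL-17B (log2 fold change -1.08, SE 1.04, adjusted p = 0.674 from edgeR). ADAM33, known as an asthma susceptibility gene of airway fibroblasts and smooth muscle, had 191 and 156 counts in the PBS pair against 2 and 171 counts under rIL-17B. The 2 counts in rIL-17B replicate 1 put it below the PBS mean by 88.1-fold (95% counting interval 24.4 to 728). Replicate 2, at 9.74 CPM, was lower by 1.24-fold (95% counting interval 1.07 to 1.45).

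ADAM8, a sheddase known from leukocytes and invasive tumours, was low and had the smallest p of the family. ADAM8 (ENSG00000151651.15, chr10:133262403-133276868, minus strand) had 51 and 48 counts in the PBS pair against 34 and 40 counts under rIL-17B, or 3.21 and 3.72 CPM in the PBS pair against 2.33 and 2.28 CPM under rIL-17B. Both rIL-17B libraries were below both PBS libraries and close to each other, with means of 3.47 ± 0.366 CPM for PBS against 2.30 ± 0.0339 CPM for rIL-17B (log2 fold change -0.66, SE 0.29, adjusted p = 0.661 from edgeR). ADAM28, expressed by lymphocytes, had 6 and 20 counts in the PBS pair against 2 and 7 counts under rIL-17B and did not pass the filter on low counts. ADAM20, ADAM21 and ADAM30, which are best known from the testis, had at most 8 counts in any library.

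Of the ADAM genes without the motif, ADAM22 was near its PBS level and ADAM23 was low in rIL-17B replicate 1. Both encode receptors for the secreted LGI proteins of neurons. ADAM22 had 235 and 188 counts in the PBS pair against 216 and 242 counts under rIL-17B, or 14.8 and 14.6 CPM in the PBS pair against 14.8 and 13.8 CPM under rIL-17B, and its rIL-17B values were below the PBS values only after TMM normalization. ADAM23 had 171 and 129 counts in the PBS pair against 15 and 156 counts under rIL-17B, and replicate 1 was lower than the PBS mean by 10.1-fold (95% counting interval 6.13 to 18.1). ADAM11, a related gene of the nervous system, had 31 and 20 counts in the PBS pair against 29 and 25 counts under rIL-17B, with overlapping groups. ADAM32 had 14 and 14 counts in the PBS pair against 9 and 22 counts under rIL-17B, also overlapping, and ADAM2 and ADAM7, genes of sperm and the epididymis, had 2 counts each in rIL-17B replicate 1 and 0 elsewhere.

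**Figure D4:**
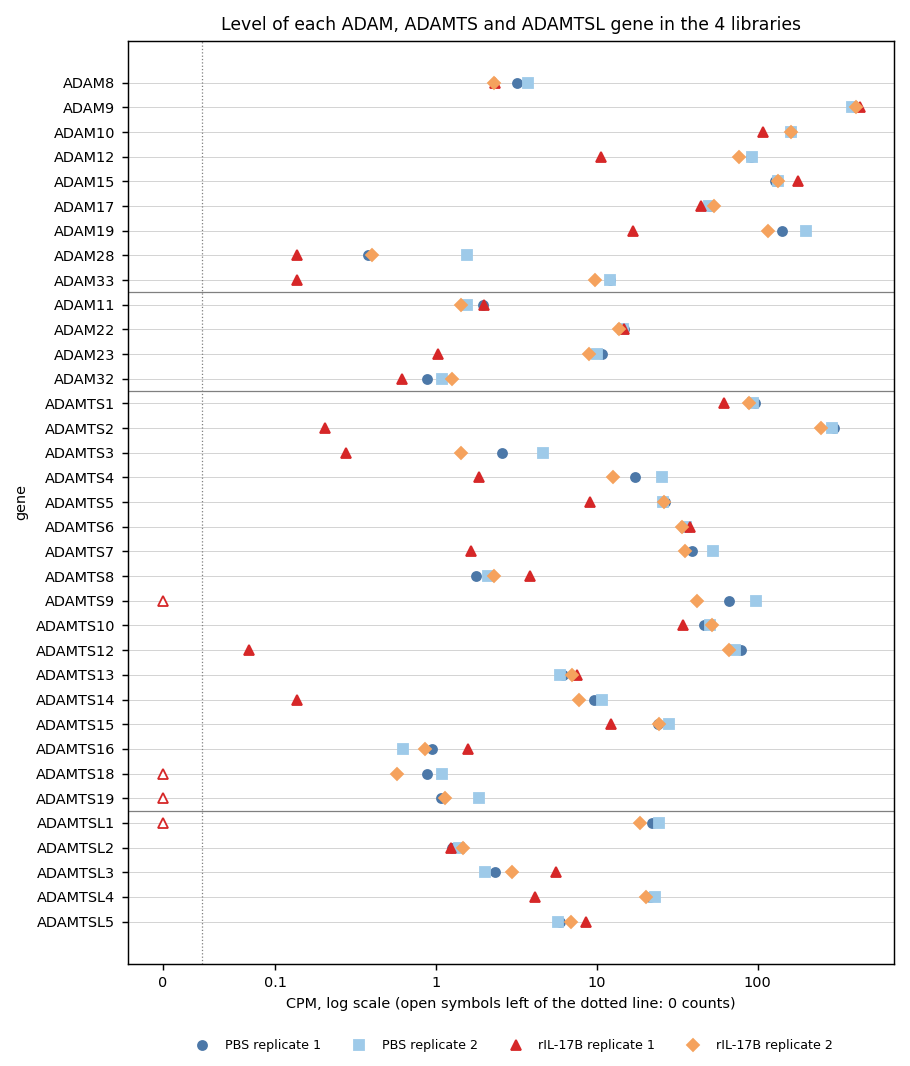
CPM (log scale) of the 35 members with at least 10 counts in a library, 1 row per gene and 1 symbol per library, with open symbols at the left for 0 counts and grey lines between subfamilies. The red triangles of rIL-17B replicate 1 lie far to the left for ADAMTS2, ADAMTS9, ADAMTS12, ADAMTS14, ADAMTSL1 and ADAM33 and within or near the other symbols for ADAM9, ADAM17, ADAM22 and ADAMTS6.

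The 3 procollagen N-propeptidases all had rIL-17B values below both of their PBS values. ADAMTS2 (ENSG00000087116.15, chr5:179110851-179345430, minus strand), the second most abundant member, had 4784 and 3742 counts in the PBS pair against 3 and 4363 counts under rIL-17B, or 301 and 290.3 CPM in the PBS pair against 0.205 and 249 CPM under rIL-17B. rIL-17B replicate 1 was lower than the PBS mean by 1440-fold (95% counting interval 493 to 6982) and replicate 2 by 1.19-fold (95% counting interval 1.15 to 1.23), and the means were 296 ± 7.39 CPM for PBS against 124 ± 176 CPM for rIL-17B (log2 fold change -1.25, SE 2.41, adjusted p = 0.789 from edgeR). ADAMTS14 had 153 and 138 counts in the PBS pair against 2 and 137 counts under rIL-17B, with replicate 1 lower by 74.3-fold (95% counting interval 20.6 to 613). ADAMTS3 (ENSG00000156140.9, chr4:72280969-72569386, minus strand), which activates the lymphangiogenic factor VEGF-C, had 41 and 60 counts in the PBS pair against 4 and 25 counts under rIL-17B, or 2.58 and 4.66 CPM in the PBS pair against 0.274 and 1.42 CPM under rIL-17B. Here the 2 PBS values were themselves 1.81-fold apart, both rIL-17B values were below them, and the means were 3.62 ± 1.47 CPM for PBS against 0.849 ± 0.813 CPM for rIL-17B (log2 fold change -2.09, SE 0.95, adjusted p = 0.661 from edgeR). In rIL-17B replicate 1 all 3 genes thus stood at 4 counts or fewer.

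The proteoglycanases, which cut versican and aggrecan, differed among themselves. ADAMTS1 (ENSG00000154734.14, chr21:26835747-26845409, minus strand) had 97.0 and 93.6 CPM in the PBS pair against 62.1 and 88.5 CPM under rIL-17B. Both rIL-17B values were below the PBS values, replicate 2 only slightly, with means of 95.3 ± 2.39 CPM for PBS against 75.3 ± 18.7 CPM for rIL-17B (log2 fold change -0.40, SE 0.26, adjusted p = 0.661 from edgeR). ADAMTS5, its neighbour on chromosome 21 and a main aggrecanase of cartilage, had 26.7 and 25.7 CPM in the PBS pair against 9.03 and 26.0 CPM under rIL-17B, so that replicate 2 was within the PBS range. ADAMTS4, the other main aggrecanase, had 17.3 and 25.6 CPM in the PBS pair against 1.85 and 12.7 CPM under rIL-17B, low in both rIL-17B libraries. ADAMTS15 had 24.2 and 28.3 CPM in the PBS pair against 12.3 and 24.4 CPM under rIL-17B, with replicate 2 inside the PBS range. ADAMTS8 (ENSG00000134917.9, chr11:130404925-130428993, minus strand), which lies next to ADAMTS15 on chromosome 11, had 28 and 27 counts in the PBS pair against 56 and 40 counts under rIL-17B. It was higher in both rIL-17B libraries, with means of 1.93 ± 0.237 CPM for PBS against 3.06 ± 1.10 CPM for rIL-17B (log2 fold change 0.58, SE 0.38, adjusted p = 0.661 from edgeR). ADAMTS9, a versican-cleaving protease with a GON domain, had 1051 and 1260 counts in the PBS pair against 0 and 738 counts under rIL-17B. At 0 counts, rIL-17B replicate 1 was at least 399-fold lower than the PBS mean (against 3 counts in that library), and replicate 2 was lower by 1.95-fold (95% counting interval 1.81 to 2.097). ADAMTS20, the other protease with a GON domain, had 1 count in PBS replicate 1 and 1 in rIL-17B replicate 2 and was not tested.

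ADAMTS7 and ADAMTS12, which cut the cartilage protein COMP, were both low in rIL-17B replicate 1. ADAMTS12 (ENSG00000151388.10, chr5:33523535-33892192, minus strand) had 1255 and 936 counts in the PBS pair against 1 and 1162 counts under rIL-17B. The single count in rIL-17B replicate 1 put it below the PBS mean by 1107-fold (95% counting interval 199 to 43738). Replicate 2 was lower by 1.14-fold (95% counting interval 1.08 to 1.21). The means were 75.8 ± 4.44 CPM for PBS against 33.1 ± 46.8 CPM for rIL-17B (log2 fold change -1.20, SE 2.15, adjusted p = 0.777 from edgeR). ADAMTS7 had 39.2 and 52.5 CPM in the PBS pair against 1.64 and 35.3 CPM under rIL-17B, replicate 1 being lower by 27.9-fold (95% counting interval 18.8 to 43.6). Near-identical pseudogene copies of ADAMTS7 exist, and how reads shared with them were counted is not given in the sources used here.

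ADAMTS6 and ADAMTS10, which act on fibrillin microfibrils, differed from PBS by less than 2-fold in each library. ADAMTS6 had 34.1 and 36.0 CPM in the PBS pair against 37.9 and 34.1 CPM under rIL-17B. ADAMTS10 had 46.2 and 51.0 CPM in the PBS pair against 34.6 and 52.0 CPM under rIL-17B, low in replicate 1 and at the PBS level in replicate 2. ADAMTS13, the von Willebrand factor protease, had 98 and 76 counts in the PBS pair against 110 and 123 counts under rIL-17B, or 6.16 and 5.90 CPM in the PBS pair against 7.53 and 7.01 CPM under rIL-17B, with both rIL-17B values above both PBS values. ADAMTS16, ADAMTS18 and ADAMTS19 are proteases with few known substrates, and their counts were low. ADAMTS16 had 15 and 8 counts in the PBS pair against 23 and 15 counts under rIL-17B, with overlapping groups. ADAMTS18 had 14 and 14 counts in the PBS pair against 0 and 10 counts under rIL-17B. ADAMTS19 had 17 and 24 counts in the PBS pair against 0 and 20 counts under rIL-17B, so that ADAMTS18 and ADAMTS19 joined ADAMTS9 and ADAMTSL1 as the tested members without a count in rIL-17B replicate 1.

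The 5 ADAMTSL genes, whose products bind the matrix without cutting it, had values on both sides of PBS. ADAMTSL1 had 353 and 316 counts in the PBS pair against 0 and 327 counts under rIL-17B, rIL-17B replicate 1 being at least 114-fold lower than the PBS mean. ADAMTSL4, a fibrillin-binding protein of the eye's suspensory fibres, had 21.6 and 23.1 CPM in the PBS pair against 4.11 and 20.1 CPM under rIL-17B. Both were low in replicate 1 and slightly below both PBS values in replicate 2. Against the PBS mean, replicate 2 was lower by 1.25-fold for ADAMTSL1 (95% counting interval 1.13 to 1.40). For ADAMTSL4 it was lower by 1.11-fold (95% counting interval 1.00 to 1.24). ADAMTSL3 (ENSG00000156218.12, chr15:83654086-84039842, plus strand) had 37 and 26 counts in the PBS pair against 81 and 52 counts under rIL-17B, or 2.33 and 2.02 CPM in the PBS pair against 5.54 and 2.96 CPM under rIL-17B. Both rIL-17B values were above both PBS values, with means of 2.17 ± 0.218 CPM for PBS against 4.25 ± 1.82 CPM for rIL-17B (log2 fold change 0.88, SE 0.41, adjusted p = 0.661 from edgeR), the largest positive fitted value of the members tested. ADAMTSL5 had 94 and 74 counts in the PBS pair against 126 and 122 counts under rIL-17B, also above PBS in both. ADAMTSL2, which binds fibrillin and a TGF-beta binding protein, had 20 and 18 counts in the PBS pair against 18 and 26 counts under rIL-17B, with overlapping groups.

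A few members had almost no counts in rIL-17B replicate 1 although the other libraries had many. ADAM33, ADAMTS2, ADAMTS9, ADAMTS12, ADAMTS14 and ADAMTSL1 had at most 3 counts there and at least 100 counts in each of the other libraries. These were 6 of the 22 members with at least 100 counts in each of the other libraries, against 3.21% of the 10664 genes with such counts. They lie on 5 chromosomes (20, 5, 3, 10 and 9), with ADAMTS2 and ADAMTS12 both on chromosome 5. The other 4 members on chromosome 5 were ADAM19, ADAMTS6, ADAMTS16 and ADAMTS19, whose log2 ratios in that library were -3.45, -0.02, 0.59 and -2.00. Of the neighbours ADAMTS8 and ADAMTS15 on chromosome 11, the first was higher and the second lower in rIL-17B replicate 1 (log2 ratios 0.72 and -1.19). The neighbours ADAMTS1 and ADAMTS5 on chromosome 21 were both lower (log2 ratios -0.75 and -1.62). Whether position in the genome played a part was not tested.

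Without rIL-17B replicate 1, the lone rIL-17B library has to be assumed to vary like the PBS libraries, and under that assumption edgeR called 5 of 35 members lower with rIL-17B (2.3% of 17103 genes) and 0 higher (0.643%). ADAMTS9 had the smallest p (log2 fold change -0.96, SE 0.11, adjusted p = 6.48e-16 from edgeR). The others were ADAM19 (log2 fold change -0.55, SE 0.09, adjusted p = 3.70e-07 from edgeR), ADAMTS4 (log2 fold change -0.75, SE 0.16, adjusted p = 4.55e-04 from edgeR), ADAMTS3 (log2 fold change -1.32, SE 0.40, adjusted p = 0.0395 from edgeR) and ADAMTS7 (log2 fold change -0.37, SE 0.12, adjusted p = 0.0456 from edgeR). Their PBS values were also far apart for this family, PBS replicate 2 standing 1.48-fold above replicate 1 for ADAMTS9, 1.41-fold for ADAM19, 1.48-fold for ADAMTS4, 1.81-fold for ADAMTS3 and 1.34-fold for ADAMTS7. In each of them rIL-17B replicate 2 was below both PBS libraries. ADAM9, ADAM10, ADAM15 and ADAM17 had log2 fold changes of 0.04, -0.01, 0.02 and 0.09 in this fit. Without rIL-17B replicate 2 instead, 22 of 35 members were called lower (31.9% of 17223 genes) and 3 higher (23.2%), so the number of calls depended on which rIL-17B library was kept. ADAMTS9, ADAM19, ADAMTS4, ADAMTS3 and ADAMTS7 were lower in both of these fits. The fits share the same PBS libraries, so the second gives no separate support for the first. In the second, too, the lone rIL-17B library is assumed to vary like the PBS libraries.

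The partners of the family were read from 6 lists of genes, and edgeR called 0 of them (0.0% of all genes). Beside the directions given for these lists, 7753 of all genes tested had a higher and 8608 a lower fitted level. For the proteins that mature and escort ADAM10 and ADAM17, 13 of 13 were tested, 6 with a higher and 7 with a lower fitted level, with a median log2 fold change of -0.25. TSPAN17, a tetraspanin that escorts ADAM10, had 36.9 and 38.6 CPM in the PBS pair against 33.5 and 33.3 CPM under rIL-17B. TSPAN14, of the same group of tetraspanins, had 71.4 and 86.6 CPM in the PBS pair against 38.3 and 65.7 CPM under rIL-17B. RHBDF1, the escort of ADAM17 also called iRhom1, had 39.7 and 40.04 CPM in the PBS pair against 14.4 and 32.5 CPM under rIL-17B. FURIN, which removes the inhibitory prodomain of ADAM and ADAMTS proteins, had 157 and 168 CPM in the PBS pair against 228 and 168 CPM under rIL-17B, so that only replicate 1 was clearly higher. Of the inhibitors, 6 of 6 had a lower fitted level, with a median of -0.66. TIMP3, the inhibitor of ADAM17 and of the aggrecanases, had 1220 and 1052 CPM in the PBS pair against 36.7 and 1034 CPM under rIL-17B. TIMP2 had 497 and 464 CPM in the PBS pair against 322 and 465 CPM under rIL-17B. TIMP4, with 7.04 and 10.7 CPM in the PBS pair against 5.82 and 5.47 CPM under rIL-17B, had the smallest p of this list (log2 fold change -0.72, SE 0.31, adjusted p = 0.661 from edgeR), followed by A2M, a broad protease trap (log2 fold change -0.54, SE 0.34, adjusted p = 0.661 from edgeR), and RECK, a membrane-anchored inhibitor (log2 fold change -0.62, SE 0.44, adjusted p = 0.661 from edgeR).

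Among the substrates of ADAM proteins, 32 of 35 genes were tested, 6 with a higher and 26 with a lower fitted level and a median log2 fold change of -0.81. CXCL16, a membrane chemokine shed by ADAM10, had 8.55 and 9.23 CPM in the PBS pair against 5.41 and 5.98 CPM under rIL-17B, and its unadjusted p of 0.0467 was the only one under 0.05 in the 6 lists (log2 fold change -0.71, SE 0.24, adjusted p = 0.661 from edgeR). L1CAM, an adhesion protein shed by ADAM10, had 148 and 144 CPM in the PBS pair against 331 and 174 CPM under rIL-17B, higher in both rIL-17B libraries (log2 fold change 0.70, SE 0.31, adjusted p = 0.661 from edgeR). NOTCH1 had 57.4 and 67.1 CPM in the PBS pair against 53.4 and 53.5 CPM under rIL-17B (log2 fold change -0.29, SE 0.13, adjusted p = 0.661 from edgeR). The most abundant gene of the list was LRP1, an endocytic receptor, with 1549 and 1603 CPM in the PBS pair against 323 and 1379 CPM under rIL-17B. Next was APP, the amyloid precursor, with 767 and 778 CPM in the PBS pair against 564 and 722 CPM under rIL-17B. Both were lowest in rIL-17B replicate 1.

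The substrates and matrix partners of ADAMTS proteins were low in rIL-17B replicate 1, as were most ADAMTS genes. Of 22 genes 18 were tested, and all 18 had a lower fitted level, with a median log2 fold change of -1.10. FN1, COL1A1, COL1A2, COL3A1, DCN and VWF of this list are also among the cell type markers above, so these results are not separate from those. Their median log2 ratio to the PBS mean was -3.91 for rIL-17B replicate 1 and -0.18 for replicate 2. Fibronectin (FN1) had 33131 and 32458 CPM in the PBS pair against 149 and 27450 CPM under rIL-17B. Collagen COL1A1, whose procollagen is a substrate of ADAMTS2, had 7263 and 7511 CPM in the PBS pair against 205 and 6192 CPM under rIL-17B. The smallest p of this list belonged to LTBP1, a carrier of latent TGF-beta (log2 fold change -0.58, SE 0.48, adjusted p = 0.662 from edgeR), fibrillin FBN1 (log2 fold change -0.81, SE 0.69, adjusted p = 0.662 from edgeR) and TFPI2 (log2 fold change -0.14, SE 0.13, adjusted p = 0.665 from edgeR). TFPI2 stood out by its even level, with 42.4 and 49.4 CPM in the PBS pair against 47.1 and 40.4 CPM under rIL-17B.

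Smaller lists covered the sugar-adding enzymes that thrombospondin repeats need for secretion and the neuronal complex of ADAM22 and ADAM23. All 4 sugar-adding enzymes had a lower fitted level, with a median log2 fold change of -0.45. POFUT2, which adds fucose to the repeats of ADAMTS and ADAMTSL proteins, had 46.9 and 44.5 CPM in the PBS pair against 26.2 and 41.9 CPM under rIL-17B, and B3GLCT, which extends that fucose with glucose, had 22.9 and 26.8 CPM in the PBS pair against 12.7 and 19.8 CPM under rIL-17B (log2 fold change -0.67, SE 0.32, adjusted p = 0.661 from edgeR). DPY19L3, which mannosylates tryptophan in the repeats, had 57.8 and 59.8 CPM in the PBS pair against 37.9 and 53.8 CPM under rIL-17B. DPY19L1, a relative, had 76.6 and 83.6 CPM in the PBS pair against 82.7 and 79.1 CPM under rIL-17B. Its groups overlapped, and its fitted level was lower only slightly (log2 fold change -0.06, SE 0.10). Of the 7 genes of the neuronal complex 3 were tested, all with a lower fitted level and with a median of -1.03. DLG4, a scaffold of synapses, had 27.5 and 32.4 CPM in the PBS pair against 12.9 and 26.1 CPM under rIL-17B. KCNA2, a potassium channel, had 7.67 and 9.85 CPM in the PBS pair against 0.137 and 4.84 CPM under rIL-17B. LGI2, a secreted ligand of this receptor group, had 1.45 and 1.40 CPM in the PBS pair against 0.205 and 1.20 CPM under rIL-17B. In all 3 genes the 4 values kept the same order of groups, with rIL-17B replicate 1 the lowest.

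**Figure D5:**
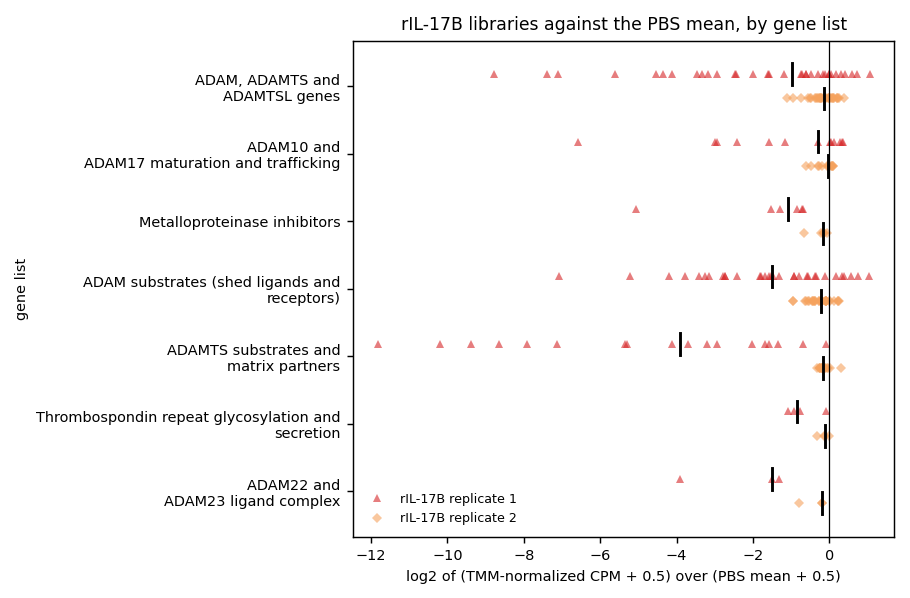
Log2 ratio to the PBS mean (TMM-normalized CPM with 0.5 added) of each tested gene of the family and of the 6 partner lists in the 2 rIL-17B libraries; black bars are medians. In rIL-17B replicate 1 the medians run from -3.91 for the matrix partners to -0.30 for the ADAM10 and ADAM17 escorts, and in replicate 2 from -0.21 to -0.03.

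Some members share exon sequence with other counted genes, and since the use of strand in counting is not given in the sources used here, their counts are uncertain. ADAM15 overlaps DCST1 on the same strand. On the opposite strand, ADAM10 overlaps AC018904.1, ADAM17 overlaps AC073195.1 and IAH1, ADAM19 overlaps CYFIP2, ADAMTS9 overlaps ADAMTS9-AS1, ADAMTS19 overlaps AC008591.1, ADAMTSL4 overlaps ADAMTSL4-AS1 and AL356356.1, and ADAMTSL5 overlaps AC027307.1.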

How the data were processed

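RNA-seq counts per gene were deposited by the authors, 1 list per library of HGC-27 cells. The submitters' processing notes name HISAT2 2.1.0, Bowtie2 2.2.3, TopHat2, HTSeq 0.6.0 and the build hg38, and the use of strand in counting is not given in the sources used here. The lists were joined on gene name (31907 names, a missing name as 0); date-like entries (22 to 25 per library) were left out, and each repeated name was used once. The members and gene lists were chosen with earlier results of these data known. The named genes were the members with at least 10 counts in a library, with full statistics for the 8 highest in mean CPM and the 5 with the smallest p, and of each partner list the 3 with the smallest p and the 2 highest in CPM. The counts went into edgeR 4.0.16 under R 4.3.3 (TMM scaling, filterByExpr, quasi-likelihood F test, two-sided, Benjamini-Hochberg over all 16361 genes tested, threshold 0.05). The fit was also run on simulated data, where a pass was required only at the spread of the PBS libraries, not at that within the groups. DESeq2 1.42.0, other scalings and filters and fits without each library were alternatives. Exact Poisson intervals (95%) cover the count of the rIL-17B library alone, with the PBS mean held fixed. Gene identifiers and positions are those of GENCODE 29, where 31217 of the names (97.84%) were found once. The zinc-binding motif was sought in coding sequences of GENCODE 29 translated here, in place of the RefSeq proteins planned.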

Additional observations from a re-analysis of the deposited data

How the results depend on the processing

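With edgeR's upper-quartile or no normalization factors, without the filter, with a minimum of 10 counts per library, with repeated names summed, with date-like entries kept, at a threshold of 0.1 and with DESeq2, 0 genes and 0 members passed, and the median log2 fold change of the members stayed between -0.59 and -0.26. The value of -0.26 came from the minimum of 10 counts per library, under which 23 members were tested in place of 34. Without the filter and with DESeq2, 41 members were. Under a replicate block, 0 genes and 0 members passed and the median was -0.66, while that of the matrix partners was -2.21; it changed no call, and the shared numbers alone do not pair the samples (correlation of deviations 0.0815). The number of genes called ran from 0 to 9489 when each library was left out in turn (504 without rIL-17B replicate 1 and 9489 without rIL-17B replicate 2), and the number of members from 0 to 25 (5 and 25 without the same libraries). The median of the members ran from -1.22 to -0.15, that of the ADAM10 and ADAM17 maturation list from -0.31 to -0.032, that of the inhibitors from -1.13 to -0.16, that of the ADAM substrates from -1.52 to -0.21, that of the sugar-adding enzymes from -0.86 to -0.13, that of the matrix partners from -6.11 to -0.18 and that of the ADAM22 and ADAM23 complex from -2.88 to -0.25. With genes at 0 counts set at their bound, the lowest medians of the matrix partners and the ADAM substrates were -4.51 and -1.44. In an alternative chosen after seeing the data, the number of members whose groups do not overlap, 22 over all libraries, ran from 26 to 31 when a library was left out. The shares of all genes moved with it, from 28.5% to between 36.0% and 42.5% higher and from 30.4% to between 37.1% and 47.7% lower, since 1 group then holds a single library. For ADAM9, whose log2 fold change was 0.01, the value was -0.030 with a minimum of 10 counts per library and ran from -0.030 (without PBS replicate 2) to 0.048 (without PBS replicate 1) when a library was left out, with -0.016 without rIL-17B replicate 2; the cause was not tested. ADAM20, ADAM21 and ADAM30, with at most 8 counts, did not pass edgeR's filter on low counts, and DESeq2, run without that filter, called 0 members.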

Other observations

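Names that carry the family's stems but fall outside the rule were also read, as values only. ADAMTS9-AS1, antisense to ADAMTS9, had 35 and 55 counts in the PBS pair against 0 and 37 counts under rIL-17B. ADAMTS9-AS2 had 12 and 10 counts in the PBS pair against 0 and 11 counts under rIL-17B. ADAMTSL4-AS1 had 8 and 10 counts in the PBS pair against 1 and 13 counts under rIL-17B. All 3 were lowest in rIL-17B replicate 1, the library in which ADAMTS9 and ADAMTSL4 were also lowest, and since the use of strand is not given, reads of a gene and its antisense partner cannot be told apart. ADAMDEC1, a relative with a reduced disintegrin domain, had 6 counts in PBS replicate 1 and 0 elsewhere, and the pseudogenes ADAMTS7P1, ADAMTS7P3 and ADAMTS7P4 had at most 9 counts in any library.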
